A study of Brugia malayi with 68 samples.

Results

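The 150 genes described here were read strongly in adult females and in microfilariae of the filarial nematode Brugia malayi, and weakly in adult males. They are 150 of the 11590 genes in the count table. They were chosen by their mean levels in the 17 untreated libraries. Counts were divided by each library's total and multiplied by 1000000 to give CPM, the unit of all levels below. The mean CPM was then taken over the 6 untreated female libraries (F), the 5 untreated microfilaria libraries (L) and the 6 untreated male libraries (M), days 1 and 7 together. A gene qualified if F and L were both at least 5 CPM and F/L lay between 1/3 and 3, which 6707 genes did. The 150 with the highest value of min(F,L)/(M+1) were kept. The untreated stage levels below are therefore a description of the choice and carry no test.

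Worms came from Mongolian gerbils infected in the peritoneal cavity. The host animals were given 1 mg/kg albendazole, 6 mg/kg diethylcarbamazine or 0.2 mg/kg ivermectin, or no treatment. Females, males and microfilariae were recovered from the peritoneal cavity 1 or 7 days later and separated, and RNA was sequenced from each. The 68 libraries form 24 groups (3 stages, 4 treatments, 2 days), with 3 libraries in 20 groups and 2 in each of the 4 groups of day 7 microfilariae. The labels name DMSO for the control groups where the treatment protocol describes untreated animals, and those groups are called untreated here. Replicate numbers mark rounds of the experiment in which all treatments were run together, per the series' design text. The number of animals or worms behind a library is not given in the sources used here, so the p-values measure the spread between these libraries.

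Filarial females do not lay eggs into the outside world. Embryos develop inside the uterus and are released as motile microfilariae, the larvae that circulate and are taken up by a mosquito. RNA from an adult female thus includes RNA from the germ line, from embryos and from stretched microfilariae still inside her, as well as from her own tissues, and in these libraries the parts cannot be told apart. In bulk RNA of this kind, fewer cells of a type and less RNA per cell cannot be told apart either. Albendazole binds nematode beta-tubulin and ivermectin opens glutamate-gated chloride channels, while diethylcarbamazine is a long-used antifilarial drug that clears microfilariae from blood.

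Total counts per library ran from 2112032 to 37822431. The 150 genes took 0.801 to 1.23% of the counts in females, 0.755 to 1.002% in microfilariae and 0.107 to 0.214% in males. Taking each library by itself, at least 143 of the 150 had 1 or more counts. For comparison, 3 lists of 150 genes each were taken from the same untreated libraries: female-restricted, microfilaria-restricted and male-restricted genes. They share 0 genes with the 150. In drug-treated libraries, all 150 male-restricted genes were lower in females than in males, and all 150 were lower in microfilariae than in males. The identifiers carry no gene names in the sources used here, so markers of each stage could not be looked up by name, and the roles of the genes are not given.

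Several libraries stood apart. Among 24 female libraries, the round 3 libraries of day 1 from the diethylcarbamazine, ivermectin and untreated groups had summed levels of the 150 genes of 11998 to 12302 CPM, against 8014 to 10057 CPM in the other 21. Those same 3 libraries had the lowest female-restricted sums, 23759 to 27849 CPM against 29334 to 41757 CPM. Among males, 4 drug-treated libraries had female-restricted sums of 3350 to 5067 CPM. The other 14 drug-treated male libraries had 562 to 923 CPM and the 6 untreated ones 546 to 631 CPM. In females, male-restricted sums were 1067 CPM in the untreated library of round 2 at day 7 and 758 CPM in the diethylcarbamazine library of round 1 at day 1, against 96.0 to 193 CPM in the other 22. The sums of the 150 genes in that pair, 8852 and 9758 CPM, were inside the range of the other females. Several tests that rest on the 3 female or the 4 male libraries are given with and without them. Summed levels by group, their ratios and some day counts are given with them only.

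In untreated worms the 150 genes had a median of 29.6 CPM in females (range 5.05 to 561) and 28.5 CPM in microfilariae (5.16 to 605), against 2.72 CPM in males (0.0328 to 139). Of these genes, 19 reached 100 CPM in both females and microfilariae. A male mean under 1 CPM was found for 42. None (0) was without a count in all 6 untreated male libraries. The ratio F/L had a median of 0.952, so as a list the genes leaned to neither stage: 34 lay above 1.5, 72 between 1/1.5 and 1.5, and 44 below 1/1.5.

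WBGene00220360 had the highest value of the choosing score, 18.3. Its level in untreated worms was 21.8 ± 4.01 CPM in females (SD, n = 6) and 60.3 ± 25.4 CPM in microfilariae (n = 5), against 0.19 ± 0.14 CPM in males (n = 6). WBGene00225944 was next with a score of 17.9, and had 30.2 ± 11.0 CPM in females and 27.4 ± 5.92 CPM in microfilariae, against 0.53 ± 0.18 CPM in males. The score thus favoured genes nearly silent in males over abundant ones. The most abundant gene by min(F,L) was WBGene00224784, with 561 ± 357 CPM in untreated females and 605 ± 44.7 CPM in microfilariae, against 139 ± 41.1 CPM in males. WBGene00223148 followed with 376 ± 260 CPM in females and 383 ± 85.3 CPM in microfilariae, against 73.0 ± 17.9 CPM in males. Both had a female SD several times larger relative to the mean than the microfilaria SD, with 1 library far above the other 5, described with the rounds below.

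At the lower edge of the list the last gene inside was WBGene00268501, with a score of 3.61 and 6.70, 13.2 and 0.86 CPM in females, microfilariae and males. The last but one was WBGene00224763, with a score of 3.63 and 109, 74.2 and 19.4 CPM. The first gene outside, WBGene00222780, had a score of 3.59 and 65.8, 62.6 and 16.4 CPM. The edge therefore falls in a continuous range of values. When the same rule was applied to the 51 drug-treated libraries, 128 of the 150 genes were chosen again (85.3%). Applied to untreated libraries of day 1 or of day 7 alone, it kept 131 and 133.

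**Figure D1:**
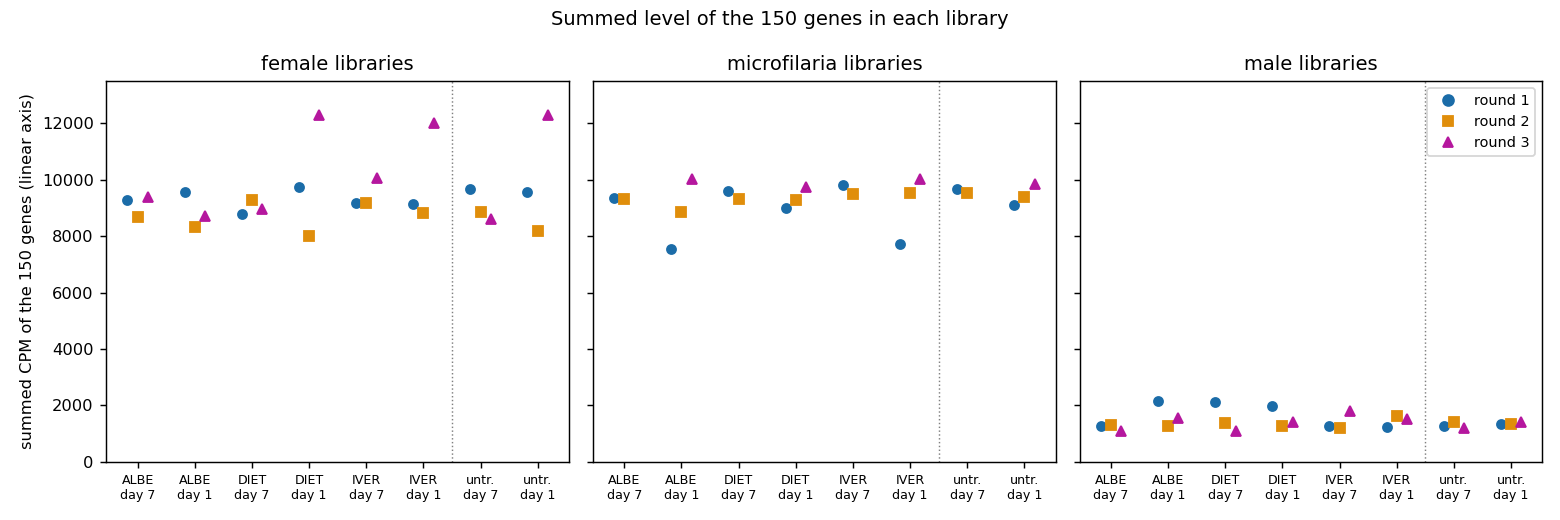
Summed CPM of the 150 genes (vertical axis, linear, from 0) in each of the 68 libraries, by treatment and day (horizontal axis; ALBE albendazole, DIET diethylcarbamazine, IVER ivermectin, untr. untreated), with 1 panel per stage and colour and symbol for the round. Female and microfilaria libraries lie between 7549 and 12302 CPM and male libraries between 1074 and 2136 CPM, and 3 female libraries of round 3 at day 1 lie at 11998 to 12302 CPM.

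The stage pattern was tested in the 51 drug-treated libraries, which the rule did not use (18 female, 15 microfilaria and 18 male). In females, 150 of the 150 genes were higher than in males at an adjusted p under 0.05 (edgeR, quasi-likelihood fit, Benjamini-Hochberg over 10876 genes). Of all genes tested, 43.5% were called higher in females by the same rule (84.6% in either direction). The median log2 fold change of the 150 was 3.03 (1.52 to 6.11), against 0.05 for all genes tested, and 134 were at least 4-fold higher. Summed over the 150 genes, drug-treated females had 9412 ± 1109 CPM (SD, n = 18) and drug-treated males 1473 ± 333 CPM (n = 18), a ratio of 6.39. Every female library was above every male library for 132 of the 150 genes, against 14.8% of all genes with enough counts. Without the 4 male libraries that stood apart, this held for 140 genes (16.9% of all). All 150 were called higher without these 4 libraries (median 3.25, beside 83.3% of all genes in either direction) and without the 3 female ones (median 3.02, beside 85.5%).

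The comparison with microfilariae gave nearly the same size. In microfilariae, 149 of the 150 genes were higher than in males (edgeR, adjusted p under 0.05), where 42.5% of all genes tested were higher (85.5% in either direction). The median log2 fold change was 3.16 (0.29 to 6.73), against 0.00 for all genes tested. The exception was WBGene00235502, at 0.29 on the log2 scale (SE 0.89, edgeR adjusted p = 0.764), which is described with the rounds. All microfilaria libraries lay above all male libraries for 138 genes (19% of all genes), and for 147 without the 4 male libraries (20.8% of all). The summed level was 9244 ± 731 CPM in drug-treated microfilariae (n = 15), 6.28 times that of males.

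The 2 genes with the smallest p between females and males were not the ones with the largest fold. WBGene00225660 ran from 5.57 to 13.6 CPM in the 18 drug-treated female libraries (median 11.1) and from 1.74 to 2.88 CPM in the 18 male libraries (median 2.20). The groups did not overlap, and the log2 fold change was 2.15 (SE 0.07, edgeR adjusted p = 1.21e-26). WBGene00226676 ran from 10.5 to 26.5 CPM in females (median 17.1) and from 0.17 to 2.14 CPM in males (median 0.57). Here too the groups were apart, and the log2 fold change was 4.67 (SE 0.16, edgeR adjusted p = 1.88e-26).

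Between microfilariae and males the smallest p-values belonged to WBGene00225660 and WBGene00222906. WBGene00225660 had 17.6 to 26.1 CPM in 15 drug-treated microfilaria libraries (median 22.7), all above the male range given above, at 3.32 on the log2 scale (SE 0.07, edgeR adjusted p = 5.32e-32). WBGene00222906 had 104 to 159 CPM in microfilariae (median 124) and 3.04 to 7.43 CPM in males (median 5.25). Its log2 fold change was 4.72 (SE 0.11, adjusted p = 2.57e-31), with no overlap.

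**Figure D2:**
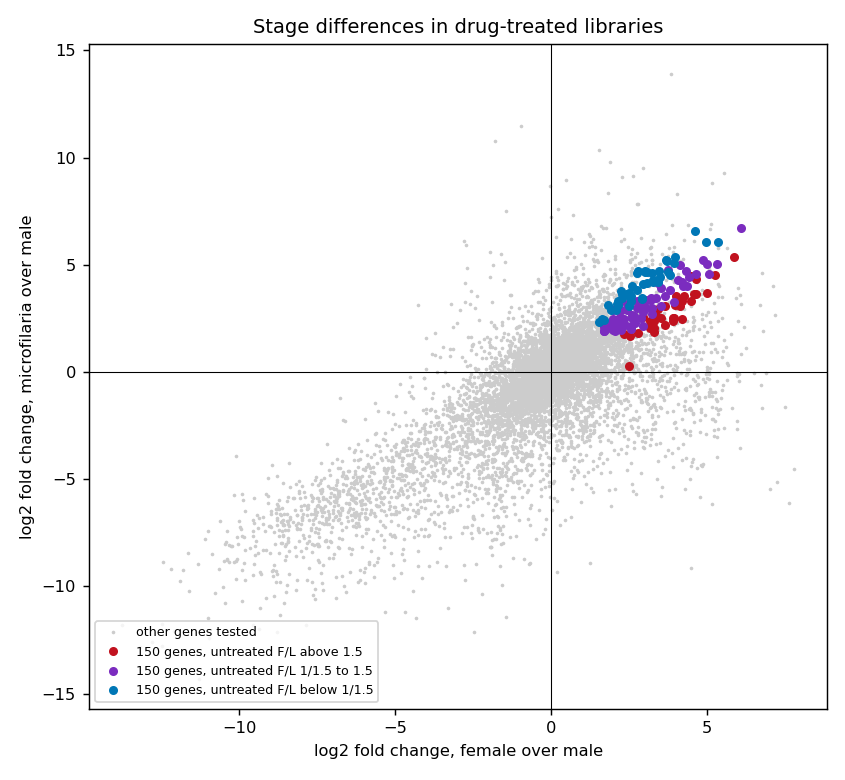
Log2 fold change between females and males (horizontal axis) and between microfilariae and males (vertical axis) in drug-treated libraries, 1 point per gene tested, with the 150 genes coloured by their ratio F/L in untreated libraries. The 150 genes lie at 1.52 to 6.11 on the horizontal axis and 0.29 to 6.73 on the vertical axis, and the colours follow the diagonal, with genes of low F/L above it and genes of high F/L under it.

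The limits on F/L left room for differences between females and microfilariae within the list. In drug-treated libraries, 42 of the 150 genes were higher in females than in microfilariae and 66 were lower (edgeR, adjusted p under 0.05). These are 28.0% and 44.0% of the list, beside 38.6% and 39.3% of all genes tested and 77.8% in either direction, so the share called is close to that of the transcriptome. The median log2 fold change was -0.21 (-1.96 to 2.22), against -0.01 for all genes tested. Classes set on untreated libraries held in drug-treated ones. Of the 34 genes with untreated F/L above 1.5, 31 were higher in females and 0 lower (median 0.95). Of the 44 with F/L below 1/1.5, 43 were lower in females and 0 higher (median -1.08). In the middle class of 72 genes, 11 were higher and 23 lower (median -0.18). Without the 3 female libraries that stood apart, 42 of the 150 were higher and 75 lower (80.3% of all genes in either direction). Of the 150 genes, 145 kept a drug-treated F/L between 1/3 and 3.

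Genes at the 2 ends differed by several fold and still shared low male levels. WBGene00221999 had the highest untreated F/L, 2.98, with 109 ± 36.0 CPM in untreated females and 36.4 ± 7.12 CPM in microfilariae, against 1.20 ± 0.53 CPM in males. WBGene00230084 followed at 2.95. The lowest was WBGene00222906 at 0.35, with 44.3 ± 12.4 CPM in females and 128 ± 19.1 CPM in microfilariae, against 3.75 ± 1.20 CPM in males.

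The smallest p-values for genes higher in females belonged to WBGene00223597 and WBGene00231169. WBGene00223597 had 56.7 to 182 CPM in 18 female libraries (median 132) and 18.9 to 53.7 CPM in 15 microfilaria libraries (median 32.7). The ranges do not overlap, and the log2 fold change was 1.75 (SE 0.17, edgeR adjusted p = 5.57e-12). For WBGene00231169 the values were 12.2 to 37.95 CPM in females (median 32.2) and 6.08 to 12.7 CPM in microfilariae (median 10.6), a difference of 1.42 on the log2 scale (SE 0.14, edgeR adjusted p = 8.48e-12). The lowest female library lay just under the highest microfilaria library for this gene. On the other side, WBGene00222906 was lower in females, with 19.4 to 59.5 CPM (median 38.4) against 104 to 159 CPM in microfilariae. Its log2 fold change was -1.92 (SE 0.10, edgeR adjusted p = 4.25e-20), and that of WBGene00225660 was -1.18 (SE 0.07, adjusted p = 2.06e-18). Only 8 of the 150 genes had every female library above every microfilaria library (14.7% of all genes), and 16 the reverse (11.9% of all genes).

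The series asks what each drug changed. Within each stage, every drug was set against untreated worms at day 1, at day 7 and over both days, 27 comparisons in all, and the change of each drug effect between days made 9 more. The 3 drugs of a stage and day share their untreated libraries, which also served the choice of the genes. In all 36, edgeR called 0 of the genes tested at an adjusted p under 0.05, and 0% of all genes tested. DESeq2 also called 0 of the 150. At an unadjusted p under 0.05 and by day, 0 to 3 of 150 genes passed in females, beside 0.74 to 1.99% of all genes, and 0 to 6 of 150 in microfilariae, beside 0.324 to 8.1%. In males, 1 to 17 of the 145 that passed the low-count filter did, beside 0.406 to 8.98% of all genes. The 17 came after albendazole at day 1, where 2.59% of all genes passed. Without the 4 male libraries that stood apart, 7 of 136 passed there, beside 194 of 10302 genes tested. Without the 3 female libraries that stood apart, 0 to 15 of 150 passed in females by day. The 15 came after diethylcarbamazine at day 1, beside 449 of 10415 genes tested. Over both days 22 passed after diethylcarbamazine, 3 after albendazole and 7 after ivermectin, beside 576, 109 and 471 of 10415. At an adjusted p under 0.05, edgeR called 0 in these fits.

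In females the summed level of the list stayed near its untreated value with every drug. Over both days the summed level was 8988 ± 486 CPM after albendazole, 9519 ± 1480 CPM after diethylcarbamazine and 9730 ± 1185 CPM after ivermectin, against 9530 ± 1467 CPM in untreated females (SD, n = 6 each). The medians of the log2 fold changes by day lay between -0.11 and 0.05. Single genes ran from -1.75, after albendazole at day 1, to 0.83, after diethylcarbamazine at day 1, and 8 genes were at least 2-fold lower in the albendazole comparison without passing the test. Without the 3 female libraries that stood apart, the medians by day lay between -0.087 and 0.045. Microfilariae had 9021 ± 919, 9390 ± 289 and 9321 ± 919 CPM after albendazole, diethylcarbamazine and ivermectin, against 9505 ± 282 CPM untreated (n = 5 each), with medians by day between -0.08 and 0.01. In each stage the range of every drug group overlapped that of the untreated libraries when both days were taken. At day 7 alone, the albendazole microfilaria libraries, at 9359 and 9318 CPM, lay under the untreated ones, at 9678 and 9520 CPM, a difference between 2 libraries each that was not tested.

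In males the medians were all above 0. They were 0.37 after albendazole at day 1, 0.39 after diethylcarbamazine at day 1 and 0.30 at day 7, and 0.12 and 0.18 after ivermectin at days 1 and 7, with 0.02 after albendazole at day 7. Over both days the summed level in males was 1440 ± 371 CPM after albendazole, 1536 ± 415 CPM after diethylcarbamazine and 1443 ± 244 CPM after ivermectin, against 1324 ± 76.6 CPM in untreated males (n = 6 each). The drug-treated SDs were larger than the untreated one, and the medians rest largely on 4 libraries. They are round 1 of albendazole at day 1, of diethylcarbamazine at day 1 and of diethylcarbamazine at day 7, and round 2 of ivermectin at day 1. Without them the medians were 0.06, -0.00, -0.04, 0.00, 0.16 and 0.01, in the order given above, over the 136 genes that then passed the low-count filter.

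In the first 3 of those libraries, 120 of the 150 genes lay above all 6 untreated male libraries, beside 20.6, 14.5 and 24.4% of all genes with enough counts. In the ivermectin library 57 did, beside 31.5% of all genes. In the other 14 drug-treated male libraries the number was 11 to 39, beside 5.09 to 45.2% of all genes. Low levels in untreated males chose the 150, so part of an excess over them is built in. The excess over the untreated male mean was taken as a share of the untreated female level, for the 43 genes of the 150 at least 16-fold higher in untreated females than in males. Its median was 10.3% in the albendazole library, 7.48% and 8.43% in the diethylcarbamazine libraries of days 1 and 7, and 1.497% in the ivermectin library. In the other drug-treated males it lay between -0.09 and 0.41%, and in untreated males between -0.26 and 0.28%. For 143 female-restricted genes the same measure gave 10.3, 7.90, 10.6 and 8.96% in the same libraries. For 77 microfilaria-restricted genes, as a share of the microfilaria level, it gave 0.44, 0.14, 0.29 and 0.10%, against -0.17 to 0.295% in the other drug-treated males and -0.09 to 0.10% in untreated ones.

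The excess of the 43 genes was close to that of the female-restricted list in the albendazole and diethylcarbamazine libraries. The albendazole library also had the highest microfilaria-restricted excess of the 24 males. The microfilaria-restricted sum was itself 5798 to 9988 CPM in females and 5734 to 8485 CPM in untreated males, against 51371 to 76220 CPM in microfilariae. That sum therefore does not separate females from males, and the measures are not on one scale. In the ivermectin library the female-restricted excess was 8.96% while that of the 43 genes was 1.497%. The part of female material in these male libraries was not tested.

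**Figure D3:**
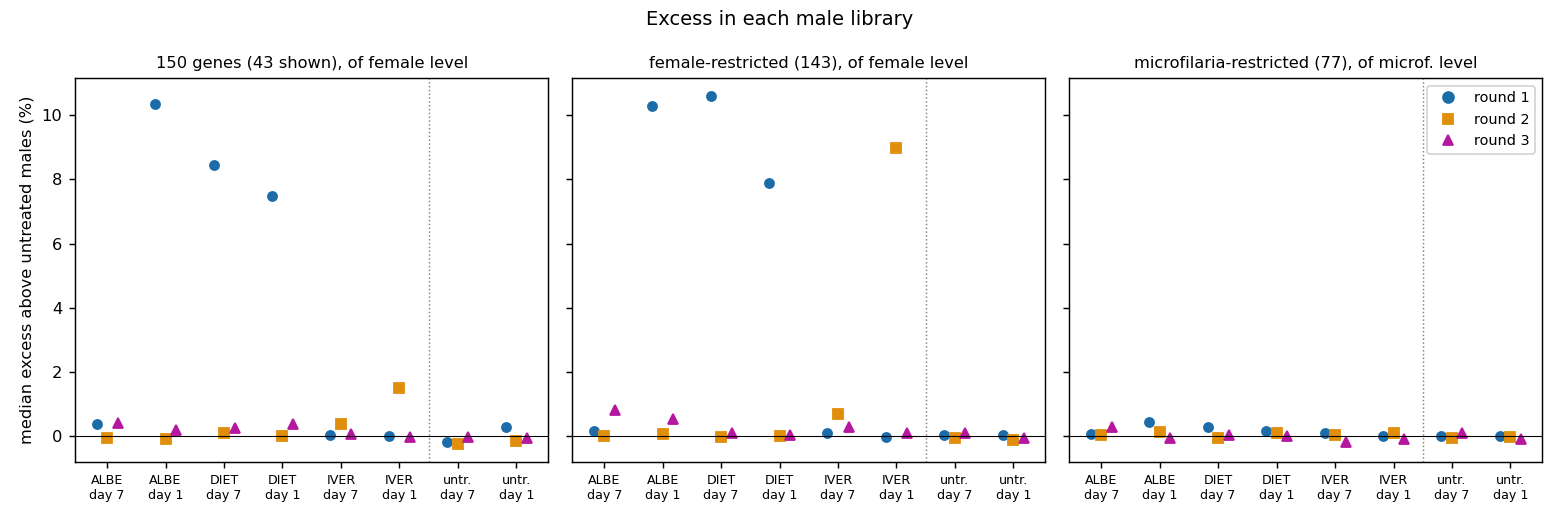
Median excess over the untreated male mean (vertical axis, percent of the level in the stage named, linear) in each of 24 male libraries, by treatment and day (horizontal axis; ALBE albendazole, DIET diethylcarbamazine, IVER ivermectin, untr. untreated), for 43 of the 150 genes, 143 female-restricted genes and 77 microfilaria-restricted genes. The 43 genes reach 7.48 to 10.3% in 3 libraries of round 1, the female-restricted genes 7.90 to 10.6% in 4 libraries, and the microfilaria-restricted genes stay at or under 0.44%.

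Day of recovery was compared over the 3 drug groups of each stage, day 7 minus day 1. Day and date of recovery cannot be told apart here. At an adjusted p under 0.05 edgeR called 0 of the 150 genes in females, 0 of 145 in males and 0 of 150 in microfilariae, and 0% of all genes in each stage, and DESeq2 called 0 of the list as well. At an unadjusted p under 0.05, 20 passed in females, 3 in males and 9 in microfilariae, beside 12.1, 3.19 and 4.87% of all genes tested, which is near the share of the list. Without the 3 female libraries that stood apart, 13 of 150 passed in females, beside 749 of 10415 genes tested. A replicate block for the round was also fitted, coded within each day. It takes the spread between rounds out of the error, so its calls do not set a day difference against that spread. With the block, 21 of the 150 genes were called in females (7 higher and 14 lower at day 7). Of all genes tested 13.6% were called, so the share of the list is close to that of the transcriptome. The block gave 1 gene in males (0.00966% of all genes) and 1 in microfilariae (0.0983% of all genes). These were WBGene00235502 and WBGene00268501, both lower at day 7 and both high in 1 round of day 1. With the block and without round 3, which day 7 microfilariae do not have, 20 genes were called in microfilariae (17 higher, 3 lower), beside 5.05% of all genes tested.

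Rounds of the experiment were compared next. Except where said, the untreated libraries were included. They also served the choice of the genes, so part of a lean of the list between rounds may be built in. In females at day 1, round 3 differed from rounds 1 and 2 for 102 of the 150 genes with treatment in the model (edgeR, adjusted p under 0.05). Of these 72 were higher and 30 lower in round 3, or 48.0% and 20.0%. Of all genes tested 63.1% were called, 32.8% higher and 30.3% lower. The share called is thus near the background, while the direction within the list leaned upwards, with a median log2 fold change of 0.31. Fold changes in this fit are after TMM scaling of the libraries, and the median of all genes tested was -0.019. CPM carry no such scaling, so levels and fold changes here are not on one scale. By CPM, round 3 of the diethylcarbamazine, ivermectin and untreated groups had median levels of the 150 genes of 19.8, 22.1 and 22.6. The other 21 female libraries had 21.6 to 33.2 CPM, although the sums of those 3 were the highest.

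The high sums came with high levels of abundant members. WBGene00224784 had 1275, 1138 and 1282 CPM in round 3 of the diethylcarbamazine, ivermectin and untreated females of day 1. The albendazole female library of the same round had 404 CPM, and the 21 female libraries other than those 3 had 335 to 504 CPM. WBGene00223148 had 873, 814 and 893 CPM in the same 3 libraries and 218 CPM in the albendazole one. The female SDs of both genes rest on these libraries.

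Of the genes called higher in round 3 females, WBGene00226453 had 135, 116 and 112 CPM in the diethylcarbamazine, ivermectin and untreated libraries of round 3 and 77.3 CPM in the albendazole one, against 40.3 to 87.2 CPM in the 8 libraries of rounds 1 and 2. After TMM scaling its log2 fold change was 1.43 (SE 0.15, edgeR adjusted p = 1.01e-05), and that of WBGene00224090 was 1.40 (SE 0.15, adjusted p = 9.68e-06). Of those lower, WBGene00226270 had 8.22, 1.98, 4.23 and 3.40 CPM in round 3 after albendazole, diethylcarbamazine and ivermectin and in untreated females, against 11.6 to 17.7 CPM in rounds 1 and 2. The rounds do not overlap for that gene, and the log2 fold change was -1.34 (SE 0.16, edgeR adjusted p = 1.51e-05). Without the 3 libraries that stood apart, round 3 is represented by the albendazole library alone. Its spread is then assumed to be that of the other groups, and 2 of the 150 genes were called, both lower, beside 1.41% of all genes. At day 7, edgeR called 0 of the 150 genes between round 3 and rounds 1 and 2 in females (0.302% of all genes), with 8 at an unadjusted p under 0.05 (8.44% of all genes) and 1 called by DESeq2.

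**Figure D4:**
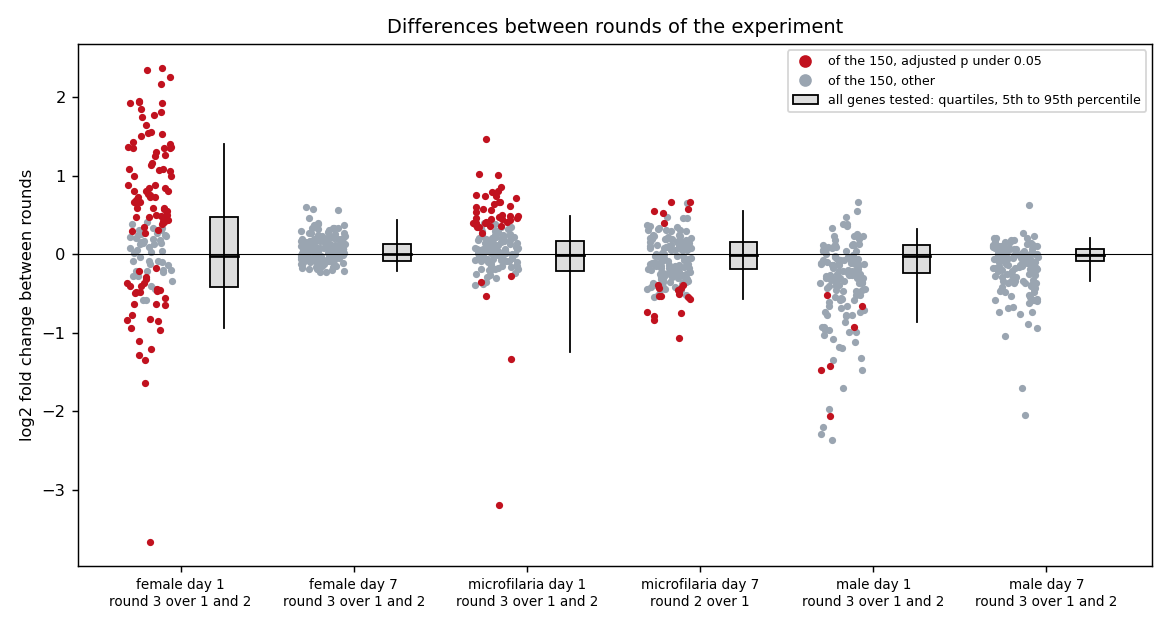
Log2 fold change between rounds of the experiment (vertical axis) for each of the 150 genes that passed the low-count filter, by stage and day (horizontal axis), with genes called at an adjusted p under 0.05 in red and boxes for the quartiles and lines for the 5th to 95th percentile of all genes tested. Day 1 females carry 102 called genes and day 1 microfilariae 43, while day 7 females and day 7 males carry 0.

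In microfilariae of day 1, too, more of the list was higher than lower in round 3. Round 3 differed for 43 of the 150 genes, 38 higher and 5 lower (25.3% and 3.33%), beside 23.3% of all genes tested, 12.4% higher and 10.8% lower. The median log2 fold change was 0.13. The summed level was 9758 to 10021 CPM in the 4 round 3 libraries, against 7549 to 9112 CPM in round 1 and 8862 to 9543 CPM in round 2, so round 3 did not overlap with either. WBGene00233503 had 44.1, 32.4, 35.7 and 27.4 CPM in round 3 after albendazole, diethylcarbamazine and ivermectin and in untreated microfilariae, against 7.31 to 21.5 CPM in the other 8. Its log2 fold change was 1.47 (SE 0.15, edgeR adjusted p = 1.98e-05). WBGene00230390 had 148 to 202 CPM in round 3 against 44.3 to 120 CPM in the others, with a log2 fold change of 1.00 (SE 0.13, adjusted p = 0.000145).

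Male-restricted sums in the same round 3 microfilaria libraries were 96.3 to 110 CPM, against 94.2 to 409 CPM in round 1 and 172 to 276 CPM in round 2. Female-restricted sums were 326 to 342 CPM, against 303 to 613 CPM and 410 to 542 CPM. Of 113 male-restricted genes tested, 51 were lower in round 3 and 0 higher, and of 121 female-restricted genes 38 were lower and 1 higher. The shares of all genes in this comparison are those given above for day 1 microfilariae. Both lists were chosen for low levels in untreated microfilariae, round 3 included, so part of a lower level there may be built in. Their levels in microfilariae are also low. The part of adult material in the difference between rounds was not tested. The count among the 150 fell to 26 without the albendazole library of round 3 and to 27 without the ivermectin one. Of the 72 genes higher in round 3 females and the 38 higher in round 3 microfilariae, 16 were shared, 22.2% of the first set and 42.1% of the second, where 48.0% of the whole list was higher in round 3 females. In all, 10 of the 150 were called in opposite directions in the 2 stages.

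In day 7 microfilariae, round 2 differed from round 1 for 22 genes, 6 higher and 16 lower (6.74% of all genes), but for 0 in the drug-treated libraries alone and for 0 without either albendazole library or without the untreated library of round 2. Without the untreated library of round 1, 3 genes were called. In males of day 1, 6 of the 145 genes tested were lower in round 3 and 0 higher (10.5% of all genes in either direction). That count was 1 without the albendazole or the ivermectin library of round 3 and 14 without the ivermectin library of round 1. At day 7 it was 0 of 145 (0% of all genes), with 2 at an unadjusted p under 0.05 (2.67% of all genes) and 0 called by DESeq2, and it was 8 without the ivermectin library of round 3.

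A pair of the 150 genes followed 1 round in every stage. WBGene00235502 had 344, 267, 94.95 and 224 CPM in round 1 females of day 1 after albendazole, diethylcarbamazine and ivermectin and untreated. The other 20 female libraries had 1.53 to 11.7 CPM. In microfilariae the same round had 149, 184, 7.69 and 130 CPM, against 0.42 to 3.38 CPM in the other 16 libraries. In males it had 21.4, 38.3, 17.5 and 22.2 CPM, against 0.72 to 3.14 CPM in the other 20. In all 3 stages the 4 libraries of that round lay above every other library.

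WBGene00268501 behaved in the same way at lower levels. Round 1 females of day 1 had 32.1, 38.3, 19.0 and 32.7 CPM in the same order, against 0.00 to 6.16 CPM in the other 20. Microfilariae had 63.4, 56.1, 22.6 and 53.3 CPM against 1.5 to 8.36 CPM, and males 3.95, 6.95, 5.15 and 3.54 CPM against 0.14 to 1.27 CPM. The rise was present with and without a drug and absent at day 7 of the same numbered round, where WBGene00268501 had 0.00 to 0.52 CPM in females.

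This comparison, round 1 of day 1 against rounds 2 and 3, was chosen after the values of these genes were seen, and its p-values are descriptive. For WBGene00235502 the log2 fold change was 5.22 in females (SE 0.21, edgeR adjusted p = 6.62e-11), 5.81 in microfilariae (SE 0.37, adjusted p = 8.95e-09) and 3.65 in males (SE 0.18, adjusted p = 1.23e-08). For WBGene00268501 it was 3.97 (SE 0.31), 3.43 (SE 0.20) and 3.24 (SE 0.22). Of 10674 genes with enough counts, 4 (0.0375%) had the libraries of that round above all others in all 3 stages, and 2 of those 4 are among the 150. In the list as a whole the same comparison called 39 genes in females (22 higher, 17 lower, beside 24.8% of all genes) and 54 in microfilariae (23 higher, 31 lower, beside 34.7%). In males it called 4 of 145 (beside 0.638%). In females the median log2 fold change of the list was -0.02, and 0.08 without the 3 female libraries that stood apart. Without those libraries, round 3 is represented by the albendazole library alone. Among the 10674 genes with enough counts, WBGene00235502 also had the largest SD of log2(CPM + 1) over libraries in females, 1.92, and in microfilariae, 2.27. The median of the 150 genes was 0.40 and 0.27.

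**Figure D5:**
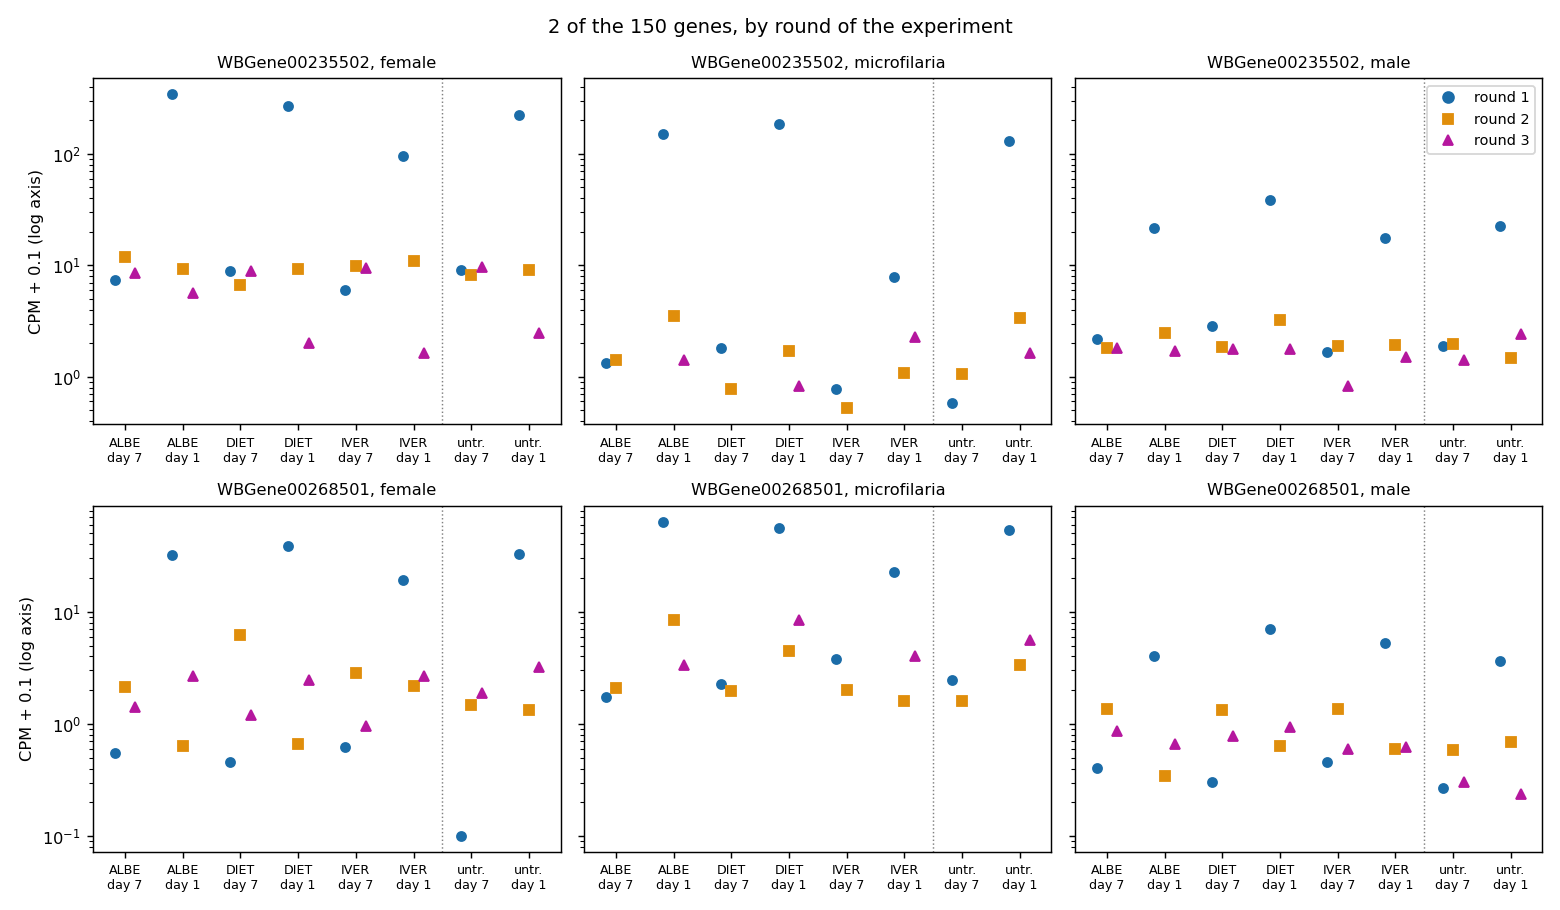
CPM plus 0.1 (vertical axis, logarithmic) of WBGene00235502 and WBGene00268501 in each of the 68 libraries, by treatment and day (horizontal axis; ALBE albendazole, DIET diethylcarbamazine, IVER ivermectin, untr. untreated), with colour and symbol for the round. The 4 round 1 libraries of day 1 lie above all others in each stage, for WBGene00235502 at 94.95 to 344 CPM in females against at most 11.7 CPM elsewhere.

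The place of both genes in the list depends on that round. With the rule applied without replicate 1, or to untreated libraries of day 7 alone, neither was chosen. With untreated libraries of day 1 alone both were. Outside that round WBGene00235502 still lay higher in females, 1.53 to 11.7 CPM, than in most males, 0.72 to 3.14 CPM, but not in microfilariae, 0.42 to 3.38 CPM. Its 0.29 on the log2 scale between drug-treated microfilariae and males therefore averages 1 round at high levels with the others at male levels.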

How the data were processed

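RNA-seq read counts per gene were used for 68 libraries. The authors deposited 1 table of raw counts, with no normalisation, per the file headers. The submitters' processing notes name HTSeq 0.6.1p1 and TopHat2 2.0.14 but not what each did. The genome build, annotation release and counting options are not given in the sources used here, so reads from near-identical or overlapping genes may be shared between them. None (0) of the 11590 identifiers occurs in the reference table of 11688 genes, so no names or sequences are given.

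From the counts, CPM and the list were computed with Python 3.11.15 and pandas 2.3.3, and plotted with matplotlib 3.10.9. Tests used edgeR 4.0.16 (TMM scaling, filterByExpr at min.count 10 and min.total.count 15, quasi-likelihood, two-sided, Benjamini-Hochberg over all genes tested, threshold 0.05) in R 4.3.3 with limma 3.58.1. The 3 stages were fitted together on drug-treated libraries, and each stage alone for drugs, days and rounds. Simulated data were used to test the edgeR fits for diethylcarbamazine and for round 3 in day 1 females, and for females against males. The other fits were not tested in this way. Alternatives were DESeq2 1.42.0, RLE size factors, no filter, a replicate block, leaving out libraries, and drug-treated libraries only. The members, lists and comparisons were chosen with earlier results of these data known. Named genes are those at the ends of the score, level and F/L, and per comparison the 2 called genes with the smallest p in each direction. WBGene00235502, WBGene00268501 and the abundant genes of round 3 were singled out after their values were seen.

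The series' design text ties replicate numbers to rounds. Deviations of same-numbered libraries had mean correlations of 0.551, 0.217 and 0.464 at day 1 in females, males and microfilariae (different numbers -0.260, -0.105 and -0.228). At day 7 they were 0.331, 0.062 and 0.299 (different numbers -0.160, -0.034 and -0.299). Group means were subtracted first, which ties the values for different numbers to those for the same number. They are therefore no separate evidence of pairing. Single male pairs ran from -0.284 to 0.766 at day 1 and from -0.605 to 0.578 at day 7, so males of day 7 show no shared deviation. Intervals for counting error are not given, since the tests rest on the spread between libraries.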

Additional observations from a re-analysis of the deposited data

Results flagged for a closer look

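Of 39 groups of summed levels and named genes examined for a library far from the others of its group, 8 had one. Chance gives about 1 in 20 in independent groups chosen beforehand. These groups share libraries, and some genes were singled out after their values were seen, so the count cannot be set against that rate. In untreated females, round 3 of day 1 stood far above the other 5 libraries for the summed level of the 150 genes, 12293 CPM, for WBGene00223148 at 893 CPM, for WBGene00224784 at 1282 CPM and for WBGene00225944 at 51.3 CPM. In microfilariae given ivermectin, round 1 of day 1 had the lowest summed level, 7722 CPM, far from the other 4. WBGene00268501 in untreated worms was far above the rest in round 1 of day 1 in every stage, with 32.7 CPM in females, 53.3 CPM in microfilariae and 3.54 CPM in males.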

How the results depend on the processing

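Of 721 values recomputed under the alternatives, 687 kept their side of the threshold, or stayed within 1.5 times of the reported count, and 34 did not. All 474 values of the 36 drug comparisons and changes of drug effects stayed at 0 genes called. The stage counts stayed within 1.5 times under every alternative run. With the replicate block, the day comparison over drug-treated libraries called 21 female, 1 male and 1 microfilaria genes, and 20 in microfilariae with the block and without replicate 3, where 0 were called without it. In that comparison the block leaves the spread between rounds out of the error. The block moved no other count by over 1.5 times. For round 3 of day 1 females the count was 2 without the 3 female libraries that stood apart, and 82 to 121 over libraries left out in turn. At day 7 it was 1 with DESeq2 and 3 without those 3 libraries. In day 7 microfilariae the count was 0 in drug-treated libraries alone, and 0 to 25 over libraries left out. The ranges were 26 to 50 for day 1 microfilariae, 1 to 14 for day 1 males and 0 to 8 for day 7 males. For round 1 of day 1, added after the values were seen, females gave 14 in drug-treated libraries alone and 17 to 83 over libraries left out, and microfilariae 36 to 61. Males gave 13 with DESeq2, 2 in drug-treated libraries alone, 2 without the 4 male libraries and 2 to 17 over libraries left out. The cause of these changes was not tested. Leaving out a library for day 7 microfilariae leaves a group of 1 library, whose spread is assumed to be that of the others. Stage means of genes at a few CPM rest on few counts in the shallowest libraries, and levels between genes are not per length.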
